A study of Mus musculus with 26 samples.

Results

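Order of antibodies in sequential ChIP (reChIP) was examined in the WT clones of a mouse embryonic stem cell study. K4-K27 denotes H3K4me3 ChIP followed by H3K27me3 ChIP, and K27-K4 denotes the reverse order. The regions examined here are the 12025 of 26544 regions in the K4-K27 set of the WT clones that overlap a region of the K27-K4 set (31231 regions) by at least 1 bp. At each of them K27-K4 of clones 57 and 58 was compared with K4-K27 of the same clones.

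Bivalent chromatin carries H3K4me3, a histone mark of active promoters, together with H3K27me3, the mark that Polycomb repressive complex 2 deposits at silent genes. In embryonic stem cells it is known at promoters of developmental regulators. Sequential ChIP reads it directly, because nucleosomes eluted from a first antibody are offered to a second, and only nucleosomes or small fragments that hold both marks should pass both steps.

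WT clones 57 and 58 are E14 mouse embryonic stem cell lines grown in serum and LIF, and were the controls of 2 clones, 43 and 53, that lack both Dppa2 and Dppa4 (DKO). All reChIPs of the clones started from MNase-digested chromatin of 2000000 cells. A genotype is thus represented by 2 clonal lines, each with 1 library per order. In-line totals are 10% of the eluate after the first ChIP, so total H3K4me3 shares its first step with K4-K27 and total H3K27me3 shares it with K27-K4. An IgG–IgG reChIP was made from WT clone 57 alone. The study notes that the H3K4me3 antibody has been reported to detect H3K4me2 too. Parental E14 cells, with 2 replicates of each order, were looked at for the same regions.

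The values are log2 RPM per kb (reads scaled to library size and to region length), and each library was centred on its median over the 12025 regions, so a difference says how far a region departs from the middle region of its own library. The 4 reChIP libraries held from 9242970 to 17052421 reads, of which 14.68% to 27.63% lay in the shared regions, against 2.54% in IgG–IgG. Over IgG–IgG the median region was enriched, on the log2 scale, by 3.43 and 2.90 for K4-K27 (clones 57 and 58) and by 3.17 and 2.51 for K27-K4. Between 1 and 68 of the regions had 0 reads in a reChIP library, the 68 being in K4-K27 of clone 57, the shallowest of the 4. All 8 embryonic stem cell markers examined, Pou5f1 and Nanog among them, had a region of the total H3K4me3 set at their promoter. So did 4 of 4 fibroblast and 2 of 3 primitive endoderm markers, not Gata6. Their promoters also carried total H3K27me3, at deposited levels from 0.52 to 2.65 in the 2 clones, and so did Esrrb (2.47 and 1.92) and Klf4 (0.54 and 0.19) among the stem cell markers, the other 6 of which were at -3.29 to -1.51. The part of other cell types in the order difference was not tested.

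The order of the antibodies moved 2388 of 12025 regions (19.9%) past a log2 difference of 1 with an adjusted p under 0.05 (limma, Benjamini-Hochberg over all regions). Of these, 1021 (8.49%) were higher in K27-K4 and 1367 (11.4%) were higher in K4-K27. The regions that K4-K27 favoured were nearly all promoters, among them those of genes with basic cell functions such as Ckap5, Ube2d3 and Rpn1, and in the median total H3K4me3 was high there and total H3K27me3 below IgG–IgG. The regions that K27-K4 favoured had more total H3K27me3 and less total H3K4me3 than the middle region, and fewer of them lay at promoters, among them Hoxc10, Sox10 and Grm5. The difference passed 1 in each clone separately at 380 of the 1021 and 1072 of the 1367, all of which were chosen on the mean of the same clones.

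The size of the K27-K4-favoured group depended on the scaling, and that of the K4-K27-favoured group did so less. Without centring, the values as deposited gave 1141 regions higher in K4-K27, of which 1140 were among the 1367, and 12 higher in K27-K4, of which 5 were among the 1021. That split was 99.0% against 1.04%, compared with 57.2% against 42.8% after centring. Cyclic loess normalisation gave 1547 and 551, a split of 73.7% against 26.3%. The median difference of all regions was 0.34 after centring, -0.14 as deposited and 0.10 after loess, and every difference is to be read against that shift. Leaving out 1 library left 1 library in its order, so the spread came from the other order and the prior. The median of all regions was then 0.25 to 0.39. The number of calls moved in such fits, but with no replicate in an order it is no measure of stability. With 2 libraries per order the calls also lean on the spread that limma borrows across regions, and 32 and 506 regions were called when neither the variance trend nor robust estimation was used.

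**Figure D1:**
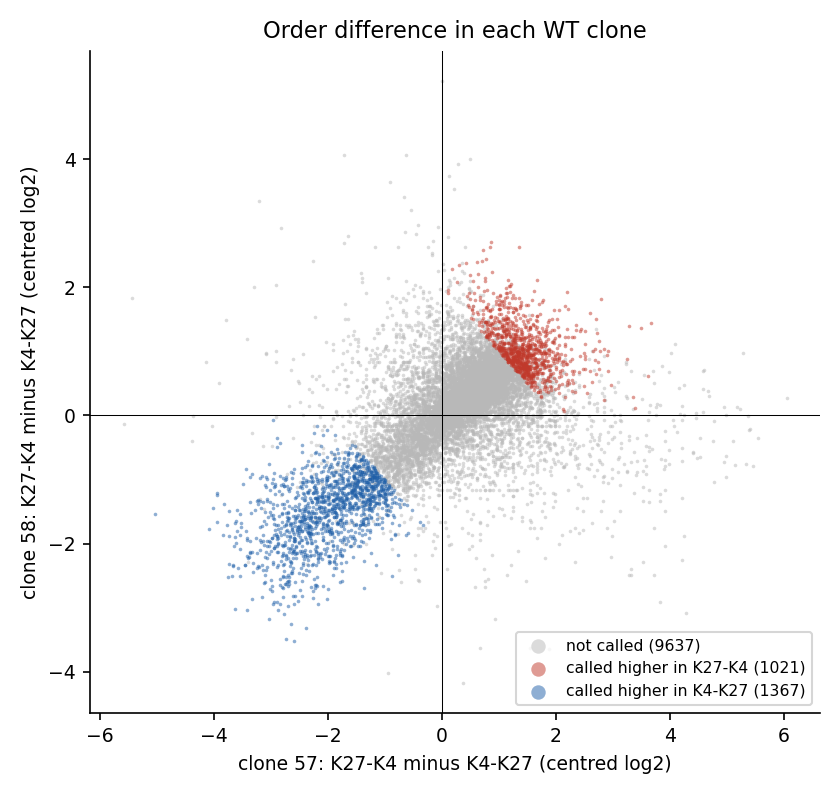
Each point is 1 of 12025 shared regions, with K27-K4 minus K4-K27 in clone 57 (x axis) and in clone 58 (y axis), both in centred log2 units. The 1367 regions called higher in K4-K27 (blue) fill the lower left and reach further from 0 than the 1021 called higher in K27-K4 (red). Regions not called are grey, with medians of 0.41 and 0.24.

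The clones gave similar but not equal sizes of difference. Across the 12025 regions the order difference of clone 57 and that of clone 58 had a Pearson correlation of 0.563, as a description over regions that share their libraries. The K27-K4 libraries of the clones were closer to each other (0.887) than the K4-K27 libraries were (0.722), and any K27-K4 library against any K4-K27 library gave 0.526 to 0.631. Over the K4-K27-favoured regions the median difference was -1.94 in clone 57 and -1.41 in clone 58, and over the K27-K4-favoured regions it was 1.41 and 1.00. Libraries of the 2 orders did not overlap in 5320 regions (44.2%) with K27-K4 higher and in 2796 (23.3%) with K4-K27 higher. The former count includes many small differences, as the interquartile range over all regions ran from -0.33 to 0.74.

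Promoter sequences of some genes among the 15 largest differences of each direction are shown for their CpG content, which differed between the groups. They are the RefSeq windows (GRCm38.p6) from 250 bases before to 50 after a start site that lay inside the called region (the window of Alox8 had 57 of its 300 bases there, the others all 300), for the first 3 genes of each direction for which the table held one (23 of 30 named genes had a window), and every CG is in capitals. The first 3 come from regions higher in K27-K4, namely chr14:122484115-122484414 on the plus strand for Pcca, chr11:69197794-69198093 on the minus strand for Alox8 and chr2:62646206-62646505 on the minus strand for Ifih1:
Pcca: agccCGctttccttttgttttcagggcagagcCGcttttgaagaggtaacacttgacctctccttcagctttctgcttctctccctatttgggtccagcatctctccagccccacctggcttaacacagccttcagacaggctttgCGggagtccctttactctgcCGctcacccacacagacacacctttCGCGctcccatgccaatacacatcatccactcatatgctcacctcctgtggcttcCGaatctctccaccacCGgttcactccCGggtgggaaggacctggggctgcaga
Alox8: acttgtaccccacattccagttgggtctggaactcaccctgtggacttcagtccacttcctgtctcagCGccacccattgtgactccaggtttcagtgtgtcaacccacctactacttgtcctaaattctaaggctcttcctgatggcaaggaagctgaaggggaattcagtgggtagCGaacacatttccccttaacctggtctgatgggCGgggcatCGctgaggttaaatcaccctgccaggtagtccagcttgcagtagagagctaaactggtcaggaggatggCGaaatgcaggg
Ifih1: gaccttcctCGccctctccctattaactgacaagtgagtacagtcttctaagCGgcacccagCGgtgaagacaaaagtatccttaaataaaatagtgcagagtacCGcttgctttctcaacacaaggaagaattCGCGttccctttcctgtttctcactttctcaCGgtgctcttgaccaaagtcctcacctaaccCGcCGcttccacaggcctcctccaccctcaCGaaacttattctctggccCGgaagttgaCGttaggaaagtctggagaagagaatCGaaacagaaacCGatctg
The next 3 come from regions higher in K4-K27, namely chr3:142881955-142882254 on the minus strand for Pkn2, chr3:94309882-94310181 on the plus strand for Them4 and chr2:91526512-91526811 on the plus strand for Ckap5:
Pkn2: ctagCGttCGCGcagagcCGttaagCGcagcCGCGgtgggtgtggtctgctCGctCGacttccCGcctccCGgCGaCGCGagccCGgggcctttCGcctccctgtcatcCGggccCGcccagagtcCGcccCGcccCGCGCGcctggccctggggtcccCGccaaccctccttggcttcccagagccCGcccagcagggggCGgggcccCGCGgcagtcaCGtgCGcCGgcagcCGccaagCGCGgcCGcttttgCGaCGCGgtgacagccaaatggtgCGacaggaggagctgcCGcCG
Them4: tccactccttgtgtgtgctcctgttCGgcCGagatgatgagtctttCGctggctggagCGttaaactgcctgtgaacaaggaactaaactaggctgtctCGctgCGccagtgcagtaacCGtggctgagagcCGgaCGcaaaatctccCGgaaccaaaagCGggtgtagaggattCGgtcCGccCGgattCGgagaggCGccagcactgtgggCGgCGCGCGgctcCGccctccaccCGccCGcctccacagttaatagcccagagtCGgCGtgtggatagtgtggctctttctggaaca
Ckap5: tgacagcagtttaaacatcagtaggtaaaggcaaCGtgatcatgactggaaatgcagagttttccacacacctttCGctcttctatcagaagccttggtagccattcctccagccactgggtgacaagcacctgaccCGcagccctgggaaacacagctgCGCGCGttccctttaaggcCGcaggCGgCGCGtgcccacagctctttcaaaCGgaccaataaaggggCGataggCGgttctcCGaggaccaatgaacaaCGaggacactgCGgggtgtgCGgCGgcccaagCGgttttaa
The windows of Pcca, Alox8 and Ifih1 held 9, 5 and 14 CG, and those of Pkn2, Them4 and Ckap5 held 41, 25 and 19. Of all 32851 windows of the same length in the table, 3.46% held as many CG as Pkn2 and 62.0% held as many as Alox8. Over all windows whose start site lay inside a called region the median was 14 CG (n = 345) in the K27-K4-favoured group and 25 (n = 1555) in the K4-K27-favoured group, beside 21 (n = 7439) for start sites in all shared regions. A window with 20 or more CG was found in 24.6% of the former and 71.3% of the latter, against 55.8% for all shared regions.

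Whole regions differed in the same direction. K4-K27-favoured regions had a median of 5.20 CG per 100 bp (interquartile range 4.27 to 6.35), K27-K4-favoured regions 3.37 (2.75 to 4.00) and all shared regions 3.85. GC content hardly differed, with medians of 55.8%, 54.9% and 55.3%. Median widths were 1950, 1650 and 1800 bp. These are descriptions over regions, which are not replicates, and were not tested.

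Position relative to genes also differed between the groups. Of the shared regions, 7563 (62.9%) lay within 1.5 kb of a RefSeq start site. Among these, 1335 (17.7%) were called higher in K4-K27 and 459 (6.07%) higher in K27-K4. Away from promoters, 32 of 4462 (0.717%) were called higher in K4-K27 and 562 (12.6%) higher in K27-K4. Promoters therefore made up 97.7% of the K4-K27-favoured regions and 45.0% of the K27-K4-favoured ones. Of the latter, 22.5% touched an exon, 16.2% lay in introns only and 16.4% were intergenic, with no start site near. The median difference over all promoter regions was 0.16, and over all other regions 0.57.

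The promoter with the largest difference in favour of K4-K27 was that of Pkn2, which encodes protein kinase N2 (chr3:142880701-142883100). It had 344 and 224 reads in K4-K27 of clones 57 and 58 and 35 and 31 reads in K27-K4. On the centred scale the K4-K27 libraries were at 1.02 and 0.74 and the K27-K4 libraries at -2.60 and -2.28, a difference of -3.32 ± 0.47 (SE, n = 2 libraries per order, adjusted p = 6.87e-07, limma). The orders were far apart and the clones of each order were close. Total H3K4me3 had 728 and 194 reads there, and total H3K27me3 7 and 10, against 29 in IgG–IgG.

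Rev3l, the catalytic subunit of DNA polymerase zeta (chr10:39730651-39733650), had 400 and 372 reads in the K4-K27 libraries, K27-K4 having 47 and 51, a difference of -3.23 ± 0.41 (adjusted p = 8.33e-08). Ckap5, which encodes a microtubule polymerase (chr2:91526401-91528050), had 214 and 169 reads against 20 and 33, and differed by -3.14 ± 0.46 (adjusted p = 9.35e-07). Both showed the order in each clone with no overlap. At E4f1, a transcription factor gene (chr17:24454051-24455550), 222 and 140 reads in K4-K27 stood against 42 and 14 in K27-K4, and the difference of -3.11 ± 0.44 was larger in clone 58 (-3.49) than in clone 57 (-2.73).

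Them4, a thioesterase gene (chr3:94309501-94310850), was less even. Its K4-K27 libraries had 131 and 67 reads and its K27-K4 libraries 5 and 26, so that the difference was -5.04 in clone 57 and -1.54 in clone 58, with a mean of -3.29 ± 0.93 (adjusted p = 0.00485). The large value rests on the 5 reads of K27-K4 in clone 57, without which it was -1.85. Other promoters among the 15 largest were N6amt1, Pde6d, Dhx30, Ube2d3, Rpn1, Dnajc19, Nr2c2, Mcph1 and Wac, with differences from -2.98 to -3.11. Their products include a ubiquitin-conjugating enzyme (Ube2d3), a subunit of the oligosaccharyltransferase (Rpn1) and an RNA helicase (Dhx30). Total H3K27me3 had at most 21 reads in either clone at any of these 9.

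In favour of K27-K4 the largest promoter difference was at Pcca, which encodes a subunit of mitochondrial propionyl-CoA carboxylase (chr14:122483551-122484600). It had 160 and 119 reads in K27-K4 of clones 57 and 58 and 10 and 39 in K4-K27. The difference of 2.56 ± 0.68 (adjusted p = 0.0214) was 3.67 in clone 57 and 1.44 in clone 58. Total H3K27me3 had 104 and 50 reads and total H3K4me3 34 and 16, the opposite balance to Pkn2. Another shared region, over a start site of Pcca further downstream (chr14:122533951-122535000), went the other way, with 42 and 43 reads in K27-K4 and 102 and 104 in K4-K27, at -1.53 (adjusted p = 1.41e-04), and there total H3K4me3 had 290 and 117 reads and total H3K27me3 7 and 13. The start sites of 1 gene could thus lie on either side of the comparison.

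Grm5, the metabotropic glutamate receptor 5 gene (chr7:87583951-87584850), had similar values in both clones. K27-K4 had 189 and 116 reads and K4-K27 33 and 27, which gave 2.19 in clone 57 and 1.93 in clone 58, and a mean of 2.06 ± 0.27 (adjusted p = 1.64e-07). At Ifih1, which encodes the double-stranded RNA sensor MDA5 (chr2:62645551-62646600), 166 and 108 reads stood against 26 and 36, a difference of 1.88 ± 0.32 (adjusted p = 1.30e-05). Ifih1 is one of the promoters in this direction at which the totals were balanced, with centred total H3K4me3 of -0.14 and -0.01 and total H3K27me3 of 0.21 and -0.30. Evx1, a homeobox factor of the posterior embryo (chr6:52308751-52312200), had 469 and 281 reads in K27-K4 and 58 and 137 in K4-K27, and differed by 1.78 ± 0.41 (adjusted p = 0.0013) in a region 1298 bp from the start site.

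The other promoters of the 15 were Pcdhgb8, Kif17, Rnf186, Ush1g, Alox8, Cacna1d, Hba-x, Hpca, Sst, Fam162b and Caly, with differences from 1.76 to 2.10. At Kif17, Cacna1d, Hpca and Evx1 the edge of the region lay 1265 to 1372 bp from the start site, and a neighbouring shared region over the start site differed by 0.07, 0.54, 0.45 and 0.89 without being called. Known products of these genes include a clustered protocadherin (Pcdhgb8), a kinesin (Kif17), a calcium channel subunit (Cacna1d), a neuronal calcium sensor (Hpca), somatostatin (Sst) and an embryonic globin (Hba-x). In 9 of the 15 the difference was larger in clone 57 by more than 1, and K4-K27 of clone 57 had 5 to 58 reads at those. Sst went the other way, at 0.87 in clone 57 and 2.70 in clone 58, as did Rnf186, at 1.36 and 2.64. Without K4-K27 of clone 57, which left 1 library in that order, Pcca fell to 1.40, Ush1g to 1.18, Alox8 to 1.13 and Cacna1d to 1.11. Kif17 at 0.56, Hpca at 0.79 and Evx1 at 0.99 then lay under the minimum difference. Without K4-K27 of clone 58, Rnf186 was at 1.24 and Sst at 1.10, and Kif17 and Hpca rose to 3.57 and 2.78. The values as deposited, lower by a constant, gave 1.29 to 2.08 for the 15, with adjusted p from 0.00578 at Pcca to 0.254, and no other passed.

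**Figure D2:**
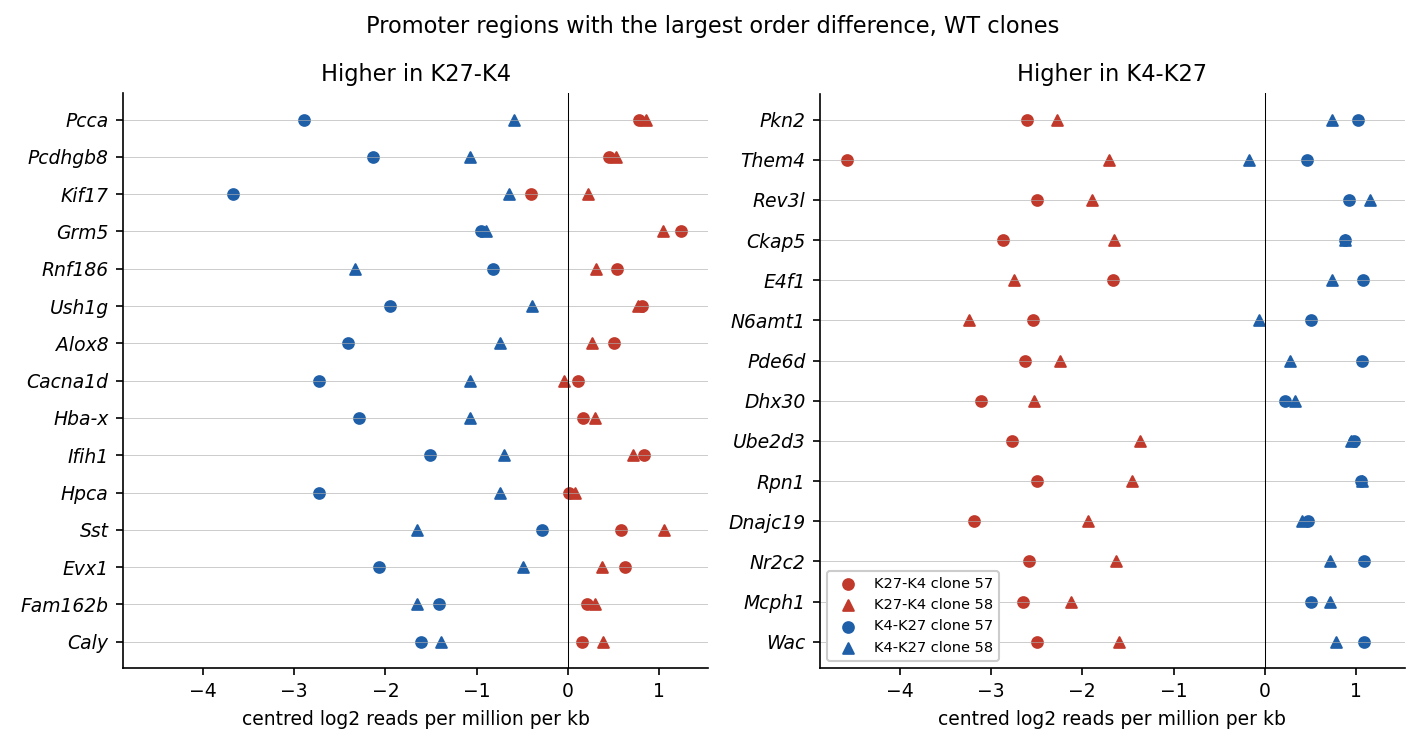
Centred log2 RPM per kb in the 4 reChIP libraries at 15 promoter regions with the largest differences in favour of K27-K4 and 14 of the 15 in favour of K4-K27, circles for clone 57 and triangles for clone 58. At promoters favoured by K4-K27 its points (blue) lie between -0.17 and 1.15 and those of K27-K4 (red) between -4.58 and -1.37, while at promoters favoured by K27-K4 the clones mostly lie further apart in K4-K27 than in K27-K4.

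Away from promoters, among called regions with a mean of at least 20 reads, the largest difference in favour of K27-K4 lay 6967 bp from the nearest named start site, that of Six3, a homeobox factor of forebrain and eye (chr17:85627801-85629300). It had 156 and 125 reads against 11 and 43, and a difference of 2.43 ± 0.59 (adjusted p = 0.00213). The next lay 6101 bp from Olig2, a factor of oligodendrocytes and motor neurons (chr16:91231651-91233000), at 2.34 ± 0.57. Both rest largely on K4-K27 of clone 57, which had 11 and 13 reads there, and without that library the differences were 1.28 and 1.24. Both calls were lost without K27-K4 of clone 58, and that near Six3 also without K27-K4 of clone 57. In the other direction the largest was a region whose nearest named start site, that of Ywhaq, lay 125565 bp away (chr12:21543001-21544050), at -2.47 ± 0.39. It lay in an intron of an annotated gene. Only curated RefSeq start sites were used, so a start site outside that set was not looked for. Centred total H3K4me3 was 1.63 and 1.04 there, a level near that of Pkn2.

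The in-line totals were libraries that the order comparison did not use, although each total shares its first ChIP with 1 of the 2 orders. Total H3K4me3 was called above total H3K27me3, on the centred scale and by the same rule, at 3342 regions (27.8%) and below it at 3367 (28.0%). All 1367 K4-K27-favoured regions were among the former. Of the 1021 K27-K4-favoured regions, 744 (72.9%) were among the latter and 2 among the former. As deposited, with no centring, 3479 and 428 regions were called in the totals.

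Medians of the totals set the groups apart in each clone. At K4-K27-favoured regions centred total H3K4me3 was 1.30 and 1.03 in clones 57 and 58, and total H3K27me3 was -2.47 and -1.84. At K27-K4-favoured regions total H3K4me3 was -0.86 and -0.63, and total H3K27me3 was 0.88 and 0.71. Against IgG–IgG on the log2 scale, total H3K27me3 stood at -1.11 and -1.03 in the former and at 2.22 and 1.54 in the latter. The K27-K4 reChIPs themselves were above IgG–IgG at the K4-K27-favoured regions, by a median of 1.49 and 1.13. Of those regions 96.0% and 95.0% were above it, against 99.3% and 98.9% of all shared regions. Each region was chosen for overlap with a K27-K4 region, and the study's methods call such regions against IgG–IgG. A level above IgG–IgG thus largely follows from that choice.

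Membership in the separately called sets of total regions gave the same picture. Of the K4-K27-favoured regions, 1334 of 1367 (97.6%) overlapped a total H3K4me3 region and no total H3K27me3 region, 33 (2.41%) overlapped both kinds, and 0 overlapped H3K27me3 alone. Of the K27-K4-favoured regions, 553 (54.2%) overlapped both kinds, 286 (28.0%) H3K27me3 alone, 122 (11.9%) H3K4me3 alone and 60 (5.88%) neither. Over all shared regions the shares were 36.2% for both, 45.5% for H3K4me3 alone, 11.9% for H3K27me3 alone and 6.38% for neither.

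**Figure D3:**
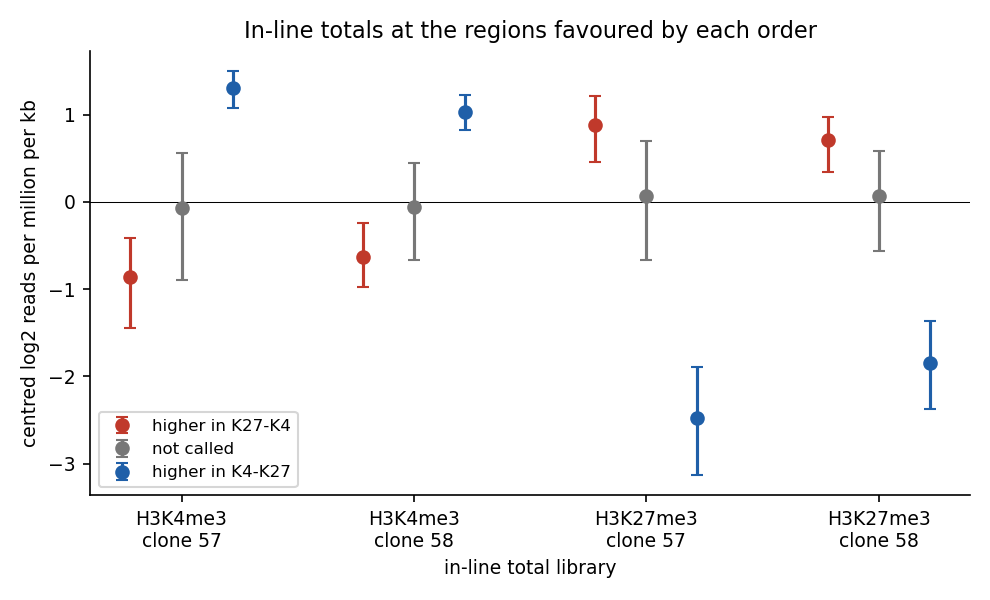
Median (points) and interquartile range (bars) of centred log2 RPM per kb in the 4 in-line total libraries, for regions higher in K27-K4 (red), not called (grey) and higher in K4-K27 (blue). H3K4me3 totals are highest and H3K27me3 totals lowest at K4-K27-favoured regions, where H3K27me3 medians are -2.47 and -1.84.

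The order difference followed the balance of the totals by degrees. When the regions were cut into 10 equal bins by total H3K27me3 minus total H3K4me3, the median difference of clone 57 rose from -2.08 in the lowest bin to 1.32 in the highest. That of clone 58 rose from -1.45 to 0.64 in the ninth bin and was 0.35 in the highest. In the lowest bin 1030 of 1203 regions (85.6%) were called higher in K4-K27 and 0 higher in K27-K4. In the ninth bin 307 of 1202 (25.5%) were called higher in K27-K4 and 0 higher in K4-K27. Across regions, and between clones so that no first ChIP was shared, the difference of clone 57 correlated at 0.712 with total H3K27me3 and at -0.555 with total H3K4me3 of clone 58. The difference of clone 58 correlated at 0.671 and -0.344 with the same totals of clone 57.

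Libraries showed this as well. Over the 12025 regions K4-K27 of clone 57 correlated at 0.749 with total H3K4me3 and at -0.0241 with total H3K27me3 of that clone, whereas K27-K4 correlated at 0.234 and 0.694. In clone 58 the values were 0.548 and 0.180 for K4-K27, and 0.161 and 0.677 for K27-K4. In each clone, then, a reChIP resembled the total of its own first antibody more than the other total. Each of these pairs shares its first ChIP.

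Gene lists were compared in the same way. The lists were read through the shared region at each gene's promoter, with the region of the highest mean taken where there were several, beside 8040 genes in all, of which 416 (5.17%) were called higher in K27-K4 and 1611 higher in K4-K27. The median over all of these genes was 0.11. As deposited, 0 of the 8040 genes were called higher in K27-K4 and 1362 higher in K4-K27, so each count in the former direction below rests on centring. The 8040 genes had 7049 distinct regions, as a region near start sites of several genes was read for each of them. No test of a list was made.

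Lists of developmental regulators differed in how many genes were called. Of the Hox genes, which set position along the body axis, 37 of 39 had a shared region, in 33 distinct regions, with differences from 0.18 to 1.28. Of these, 15 were called higher in K27-K4 and 0 higher in K4-K27, with a median of 0.92, which was 0.45 as deposited and 0.69 after loess, where 7 were called. Hoxc10 was at 1.28 ± 0.35 (adjusted p = 0.00398), or at 0.69 and not called without K4-K27 of clone 57, and the region that holds Hoxb5 and Hoxb6 was at 1.24 ± 0.26 (adjusted p = 1.93e-04). Centred total H3K27me3 over the list had medians of 1.28 and 1.04, and total H3K4me3 -1.21 and -0.75.

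Of 23 Sox and Pax genes, 6 were called higher in K27-K4 and 0 higher in K4-K27, with a median of 0.76. Sox10, a factor of neural crest, was at 1.20 ± 0.22 (adjusted p = 4.57e-05), and Pax7, a factor of muscle progenitors, at 1.08 ± 0.25. Of 39 homeobox genes of the Nkx, Dlx, Lhx, Irx and like families 6 were called higher in K27-K4 and 0 the other way, with Lhx5 at 1.20 ± 0.22 and Nkx2-9 at 1.18 ± 0.23. Of 17 T-box and Gata genes 1, Gata3, was called higher in K27-K4, while Tbx22 (1.05, adjusted p = 0.0646) and Tbx5 (1.04, adjusted p = 0.0517) did not pass. Tbx5 passed with clone as a block.

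Forkhead genes were called in both directions. Of 31, 4 were called higher in K27-K4 and 2 higher in K4-K27, the latter being Foxa3 at -1.46 ± 0.29 (adjusted p = 1.24e-04) and Foxk1 at -1.33 ± 0.30 (adjusted p = 5.73e-04). Among 50 Wnt, Bmp, Fgf and Hedgehog ligands, 3 were called higher in K27-K4, with Wnt1 at 1.13 ± 0.23, and 1 higher in K4-K27, Fgf4 at -1.54 ± 0.40 (adjusted p = 0.00222). Fgf4 encodes a growth factor that embryonic stem cells express. Its centred total H3K4me3 exceeded total H3K27me3 by 3.40.

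Of 73 potassium channel genes, 6 were called higher in K27-K4, led by Kcng4 at 1.41 ± 0.26 and Kcns1 at 1.35 ± 0.33, and 1 higher in K4-K27. Of 37 receptor genes for glutamate, GABA and glycine, 1 was called in each direction, Grm5 as above and Gabbr1 at -1.41 ± 0.38 (adjusted p = 0.00302). Of 21 germline genes 4 were called higher in K27-K4 and 0 the other way, led by Slc25a31 at 1.52 ± 0.35 (adjusted p = 7.53e-04), while Piwil1 at 1.44 had an adjusted p of 0.0621. Medians of these lists were 0.55, 0.53 and 0.82. The shares called higher in K27-K4 were 8.22% of the potassium channel, 2.70% of the receptor and 5.88% of the T-box and Gata genes, near the share of all genes, as were the 3 of 50 ligand genes. After loess, 0 genes of the Sox and Pax, homeobox, T-box and Gata, and ligand lists were called higher in K27-K4, against 1 forkhead, 3 potassium channel, 1 receptor and 3 germline genes.

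Of all 26180 genes 8040 had a shared region. Of 83 ribosomal protein genes 8 had one, and 6 of the 8 were called higher in K4-K27, with Rpl36al at -2.13 ± 0.28 (adjusted p = 1.71e-07). Of 39 proteasome genes 9 had one and 5 were called, with Psmc2, an ATPase of the regulatory particle, at -2.74 ± 0.31 (adjusted p = 1.53e-08) and Psmd8 at -2.39 ± 0.45. Of 38 DNA replication genes 8 had one and all 8 were called, led by Orc6 at -2.69 ± 0.40 and Mcm4 at -2.63 ± 0.59, the latter at -1.65 without K27-K4 of clone 57. None of these genes was called higher in K27-K4. Some of these regions also lay within 1.5 kb of a start site of a gene outside the list. These genes were Mgat2 (with Rpl36al), Dnajc2 (with Psmc2), Vps35 (with Orc6) and Prkdc (with Mcm4).

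Of 47 spliceosome genes and 84 genes of the respiratory complexes, 9 and 8 had a region. Called higher in K4-K27 were 8 of the 9 spliceosome genes, with Srsf1 at -2.78 ± 0.49 and Srsf7 at -2.51 ± 0.32. So were 7 of the 8 respiratory subunits, with Ndufb3 at -2.84 ± 0.67 and Atp5h at -2.20 ± 0.41. Atp5h was at -1.39 without K27-K4 of clone 57. The region of Ndufb3 also lay near a start site of Fam126b, and that of Atp5h near one of Kctd2. Of 13 Polycomb and Trithorax genes, 6 were called higher in K4-K27, with Kmt2a, a writer of H3K4 methylation, at -2.31 ± 0.32 (adjusted p = 5.69e-07) and Pcgf3, a subunit of Polycomb repressive complex 1, at -2.11 ± 0.38. Of the 5 pluripotency genes with a region, Tfcp2l1 was called higher in K4-K27 at -1.22 ± 0.29 (adjusted p = 0.00101), and Prdm14 was at 0.85 (adjusted p = 0.0149) without reaching the minimum difference. That 1 of 5 is near the share over all genes, 1611 of 8040. The pluripotency median was 0.10 after centring, -0.37 as deposited and -0.01 after loess, whereas the median of every other list named here kept its sign under these scalings.

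**Figure D4:**
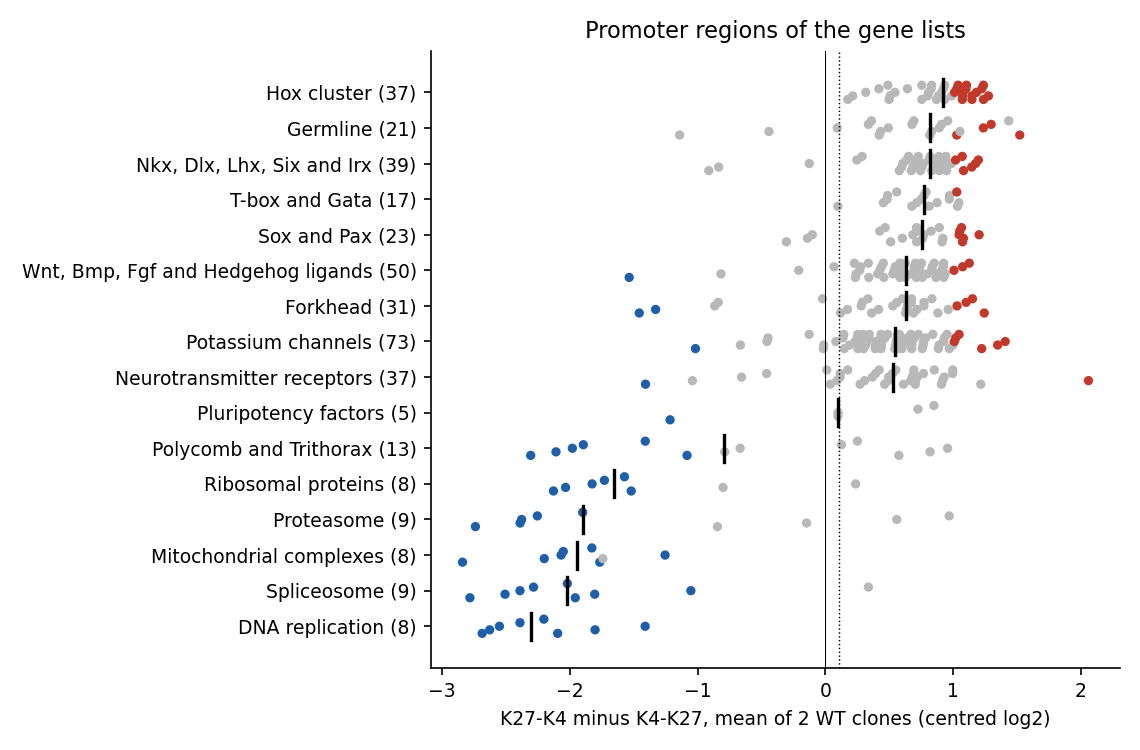
Order difference (x axis, mean of the 2 WT clones, centred log2) at the promoter region of each list gene, red for called higher in K27-K4, blue for called higher in K4-K27 and grey for not called, with the list's median as a black bar and the median of all genes, 0.11, as a dotted line. Numbers in brackets are genes with a shared region. Medians run from -2.30 for DNA replication to 0.92 for Hox genes.

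Of 10 loci that the study itself singled out and that had a shared region at the promoter, 0 were called. Of all 8040 genes with such a region, 416 were called higher in K27-K4 and 1611 higher in K4-K27. The study's qPCR used Klf4 as an H3K4me3-only control and Meis2 as an H3K27me3-only control, and treated the others as bivalent. Both controls thus had a region shared by the 2 orders. Csf1, Colgalt2, Lmo1 and Pou4f1 were between 0.32 and 0.52, Dlx3, Meis2, Mfsd4a, Sox6 and Tlx1 between 0.77 and 1.00, and Klf4 at 0.10. For Tlx1, a homeobox factor, K27-K4 exceeded K4-K27 by 1.30 in clone 57 and 0.70 in clone 58 (adjusted p = 6.11e-04), just at the minimum difference. At an unadjusted p under 0.05, limma found 3496 regions higher in K27-K4 and 2018 higher in K4-K27 over the whole set. As deposited, Klf4, Lmo1 and Pou4f1 were at -0.37, -0.05 and -0.15, so their sign depended on the scaling.

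The DKO clones gave a separate reading of order at the same regions, from libraries that had no part in the calls. Fitted alone they had 1543 regions (12.8%) called higher in K27-K4 and 1257 (10.5%) higher in K4-K27. Of the 1367 regions that K4-K27 favoured in WT clones, 1011 (74.0%) were called the same way and 0 the other way. Of the 1021 that K27-K4 favoured, 394 (38.6%) were called the same way and 1, a share of 0.0979%, the other way. Both DKO clones were negative at 97.4% of the former, against 22.1% of all shared regions, with medians of -1.72 in clone 43 and -1.33 in clone 53. Both were positive at 93.7% of the latter, with medians of 1.23 and 0.96, whereas 64.9% of all shared regions were positive in both.

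The difference of the order effect between genotypes was tested directly with limma. It was called at 2 of 12025 regions (0.0166%), while 807 had an unadjusted p under 0.05. K4-K27 of the DKO clones had 361 and 207 regions at 0 reads, more than any WT reChIP library, and the part of this in the difference was not tested. Individual loci did differ in value. Pcdhgb8, at 2.60 and 1.59 in the WT clones, was at -0.63 and 0.02 in the DKO clones, and Klf4, at 0.14 and 0.06, was at -1.27 and -0.92. Neither was among the 2.

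Parental E14 cells gave different values in their 2 replicates, and 1 library of each replicate stood closer to the total of its second antibody than to that of its first. Over the 21857 regions shared by the E14 sets, the library labelled K4-K27 of replicate 1 correlated at 0.701 with total H3K27me3 and at -0.207 with total H3K4me3 of the same replicate, although H3K4me3 was its first antibody by label. The library labelled K27-K4 of replicate 1 correlated at 0.341 and 0.229. In replicate 2, K27-K4 correlated at 0.191 with total H3K27me3 and at 0.314 with total H3K4me3, although H3K27me3 was its first antibody by label, and K4-K27 correlated at 0.152 and 0.383. The orders correlated with each other at 0.926 in replicate 2 and at 0.676 in replicate 1. Whether order labels of E14 are exchanged was not tested, and an exchange would turn the sign of a replicate's differences.

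An E14 region shared by both orders overlapped 11076 of the 12025 regions. By its labels, E14 replicate 1 had a median difference of 0.44 at regions that K4-K27 favoured in WT clones (84.0% of 1290 positive) and of -0.68 at those that K27-K4 favoured (4.77% of 1006 positive). In replicate 2 the medians were 0.14 and 0.28, with 67.0% and 90.3% of regions positive, against 82.0% of all 11076. Across the 11076 regions the WT difference correlated at -0.636 with that of E14 replicate 1, as labelled, and at 0.178 with that of replicate 2. The study's text does not give the sequencing batches of the E14 and clone libraries. Any batch difference and a difference between parental cells and clones cannot be told apart here.

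**Figure D5:**
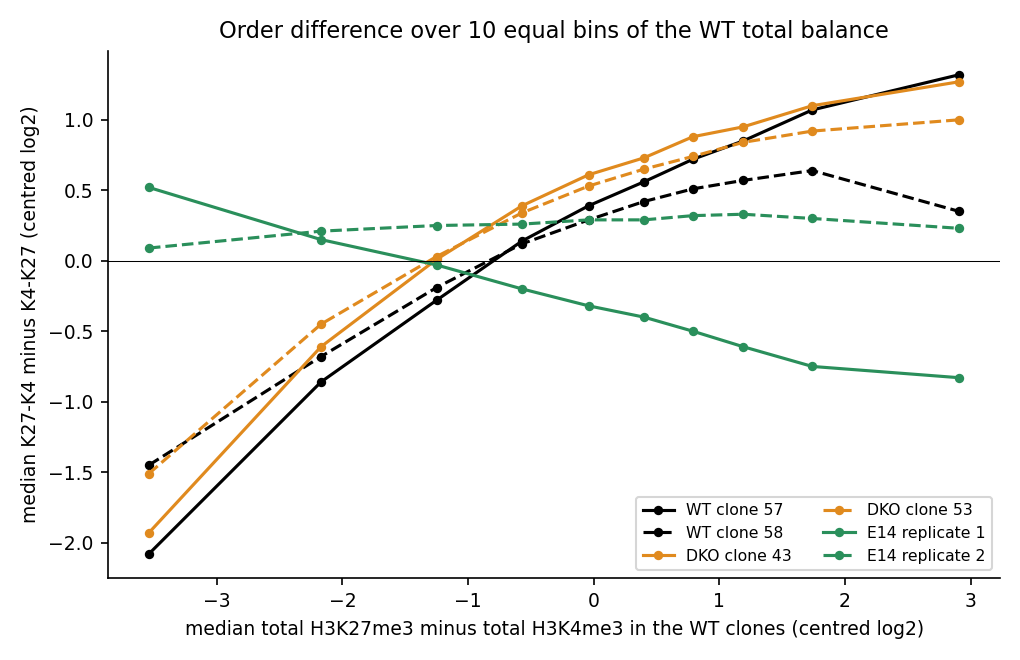
Median K27-K4 minus K4-K27 (y axis, centred log2) in 10 equal bins of shared regions ordered by total H3K27me3 minus total H3K4me3 of the WT clones (x axis), for WT clones (black), DKO clones (orange) and E14 replicates (green), with clones 57 and 43 and replicate 1 as solid lines. All 4 clones rise from the lowest bin towards the upper ones, E14 replicate 1, as labelled, falls from 0.52 to -0.83, and E14 replicate 2 stays between 0.09 and 0.33.

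The regions themselves were chosen by overlap. Those for which less than 50% of one or other region was shared (3564) had a median difference of 0.66, and those with at least 50% shared (8461) had 0.21. The latter held 413 of the 1021 regions that K27-K4 favoured and 1103 of the 1367 that K4-K27 favoured. The 823 K4-K27 regions that had no overlap but a K27-K4 region within 1 kb stood at -0.94, and all 14519 without overlap at -1.98. The centring values of the 12025 shared regions were used for both.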

How the data were processed

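The authors trimmed reads with Trim Galore 0.6.6, aligned them to mm10 with BWA 0.7.13, and processed alignments with SAMtools 1.9 and Picard 2.6.0, per the submitters' processing notes and the study's methods. The deposited values are log2 RPM per kb of region from SeqMonk, with a mapping quality above 20, duplicates kept, reads extended by 200 bp and 0 reads entered as 0.9 reads. The study's methods describe EPIC2 peaks in bins of 100 bp, but all deposited WT reChIP regions have widths that are multiples of 150 bp, and the processing notes also name MACS2, so which step made these region sets is not given in the sources used here. Values were whole reads within 0.02 reads, so reads and library totals were recovered, and 16 columns of no listed sample were left out.

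Each library was centred on its median over the shared regions. K27-K4 was compared with K4-K27 with limma 3.58.1 in R 4.3.3 (variance trend, robust) over 4 libraries with 2 residual degrees of freedom and a median prior of 49.7, so the spread is largely borrowed. The median SE was 0.307. Calls needed a Benjamini-Hochberg p under 0.05 and a log2 difference above 1. The study tested counts. Here limma was applied to the deposited log2 values, and no count model was run on the recovered reads. The fits were tested on simulated data whose spread followed the variance trend, the assumption of the fit. An earlier simulation with smaller changes and a spread that varied freely between regions recovered no changed region, so the power under such a spread is not known. The same clone supplied both orders, and deviations of same-clone libraries from their group means correlated at 0.109. Replicates are clones, but p-values rest mostly on a spread pooled over regions and less on that between the 2 clones at a region.

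Promoters reached 1.5 kb from 31647 RefSeq start sites (GRCm38.p6). Named promoters were the 15 largest called differences in each direction with a mean of at least 20 reads and a named gene, the 2 largest of each list, the 2 largest of each direction away from promoters, and loci named by the study. A few of these are not reported here. The regions, lists and tests were chosen with earlier results of these data known. Tables and figures used Python 3.11.15, numpy 2.4.6, pandas 2.3.3 and matplotlib 3.10.9. Alternatives were other scalings and variance models, other region filters and overlaps, a clone block, other promoter widths, and leaving out each library. Leaving out 1 library left 1 library in its group, so the spread then came from the other groups and the prior.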

Additional observations from a re-analysis of the deposited data

Results flagged for a closer look

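At Rrs1 the order effect differed between WT and DKO clones by the test of that difference itself. Rrs1, a ribosome biogenesis factor (chr1:9544201-9546900), had an order difference of -0.14 and 0.05 in WT clones 57 and 58 and of -2.31 and -2.29 in DKO clones 43 and 53. The difference of 2.26 had an adjusted p of 0.0251 (limma).

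K27-K4 had 772 and 467 reads at Rrs1 in the WT clones and 69 and 50 in the DKO clones, while K4-K27 had 677 and 401 against 263 and 232. Centred total H3K27me3 at Rrs1 was 0.56 and 0.74 in the WT clones and -2.53 and -1.03 in the DKO clones, and total H3K4me3 was 1.71 and 1.40 against 1.73 and 1.49. The part of the totals in the order difference was not tested. Without one or other library the adjusted p at Rrs1 ran from 0.0248 to 0.223, and it stayed under 0.05 in 2 of 8 such fits, the difference itself staying between 2.05 and 2.46. With the values as deposited it was not called (adjusted p = 1).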

How the results depend on the processing

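The main counts, 1021 regions higher in K27-K4 and 1367 higher in K4-K27, moved with the alternatives as follows. Direction is no guide here, since several alternatives leave the differences as they are or shift all of them by a constant below the minimum difference. Higher in K27-K4 were 12 regions as deposited, 551 after loess, 32 without variance trend and robust estimation, and 2717 with no minimum difference. Higher in K4-K27 were 506 without trend and robust estimation and 905 of 8461 regions with at least 50% of both shared, where 967 were higher in K27-K4, a split of 48.3% against 51.7%. Of the main calls, 413 of the 1021 and 1103 of the 1367 lay in those 8461 regions. Leaving out 1 library gave 398 to 1949 and 1061 to 1506, the lowest K27-K4 count being without K27-K4 of clone 57 and the highest without K4-K27 of clone 58. Among the named regions higher in K27-K4, 24 lost the call as deposited, 24 without trend and robust estimation and 6 after loess. Among those higher in K4-K27, 10 lost it without trend and robust estimation. Some regions of each direction also lost it without 1 library. With the replicate block (clone) the counts were 1132 and 1379, and the only named calls that changed were gains, at Tbx5 and Piwil1. Filters added after the data were seen gave 1057 and 1388 regions (mean of at least 20 reads) and 1117 and 1407 (at least 10 reads in every library).

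Total H3K27me3 was called higher at 428 regions as deposited. The genotype interaction gave 0 regions as deposited, 2 higher in WT and 1 lower with the replicate block, and 0 to 2 higher and 0 to 12 lower without 1 library, the 12 being without K4-K27 of DKO clone 53. The promoter share of K27-K4-favoured regions was 61.9% within 5 kb of a start site and 37.2% from 1 kb upstream to 100 bp downstream. The cause of these changes was not tested. Where a library has few reads in a region, as K4-K27 of clone 57 has near Six3 and Olig2, counting error limits the value there.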
